A study of Homo sapiens with 4 samples.

Results

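The 10 genes described here carry the steps by which a liver cell makes glucose and stores or releases glycogen, and they were taken by gene symbol from the 24462 genes of 4 HepG2 libraries. All 10 symbols were listed, G6PC under its older symbol. HepG2 is a cell line from a human hepatocellular carcinoma. It was kept in RPMI medium with fetal bovine serum, and each library came from 1 of 4 conditions. Cells of the CTL library were given DMSO, the solvent of the drug. Cells of the PD library were given PD-0332991 (PD0332991 below), an inhibitor of the kinases CDK4 and CDK6. Cells of the SC library received scrambled siRNA as a control, and cells of the CDK4-6-KD library (CDK4/6 KD below) received siCDK4 and siCDK6. The dose, the exposure time and the time from transfection to harvest of these cells are not given in the sources used here.

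Gluconeogenesis runs from pyruvate to glucose through enzymes that bypass the one-way steps of glycolysis. Pyruvate carboxylase (PC) makes oxaloacetate in mitochondria, and phosphoenolpyruvate carboxykinase (PEPCK) turns it into phosphoenolpyruvate, in the cytosol by the PCK1 product and in mitochondria by the PCK2 product. Fructose bisphosphatase (FBP1) and the catalytic subunit of glucose-6-phosphatase (G6PC) remove phosphate later on, the latter releasing free glucose. In the fasting liver, glucagon raises and insulin represses PCK1 and G6PC transcription, and the coactivator encoded by PPARGC1A takes part in that response. Glycogen is built by glycogen synthase, whose liver form is encoded by GYS2, and by the branching enzyme (GBE1), and it is broken down by glycogen phosphorylase, whose liver and brain forms are encoded by PYGL and PYGB.

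Reads came from QuantSeq libraries, which sample the 3′ ends of polyadenylated RNA, so that the number of reads does not grow with the length of a transcript. Totals ran from 8983848 to 11176880 reads per library. Levels are given as CPM, a gene's reads scaled to a common library size after TMM correction, and 1 read was worth between 0.0883 and 0.11 CPM. A level carries an exact Poisson 95% interval, and a fold change a Clopper-Pearson one, from how the gene's reads divide between the libraries compared. Both cover counting error only. With 1 library for each condition there were no replicates to compare and p-values are not given. Of the siRNA targets, CDK4 stood at 71.9 CPM in CDK4/6 KD against 354 in SC (fold change: 0.203) and CDK6 at 129 against 536 (fold change: 0.241). All 12 hepatocyte markers examined, ALB and AFP among them, had at least 10 reads in every library, with summed levels of 18640 CPM in DMSO, 21141 in PD0332991, 18747 in SC and 24855 in CDK4/6 KD. The sum was thus higher in both libraries with CDK4/6 inhibition, as were 6 of the 12 markers singly, while ALB, at 3319, 3050, 2574 and 5165 CPM, was higher than in both controls in CDK4/6 KD but not in PD0332991. The part of these markers in the results below was not tested. Of 6 endothelial markers none reached 10 reads in any library, and blood cell and bile duct cell markers summed to between 504.7 and 1024 CPM and between 683.8 and 1479 CPM, the highest sum being that of SC in both lists. Of the 5 bile duct cell markers, 3 had at least 10 reads in every library. Of the 7 blood cell markers, 3 did in DMSO, PD0332991 and CDK4/6 KD and 2 in SC. CD3E, HBB and CFTR of these lists were at 0 reads in every library, PTPRC in all but DMSO and KRT7 in SC. The part of these lists in the results below was not tested either.

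The 10 genes spanned a wide range of reads. PCK2 took 48.8% of the reads of all 10 genes in DMSO, 71.1% in PD0332991, 57.5% in SC and 68.8% in CDK4/6 KD. PYGL, PYGB, PC, GBE1 and PPARGC1A followed, each with between 69 and 743 reads per library. PCK1, G6PC and FBP1 had at most 67 reads in any library, and GYS2 had none. Of the genes with reads, PCK1, G6PC and FBP1 therefore carried the widest counting errors.

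**Figure D1:**
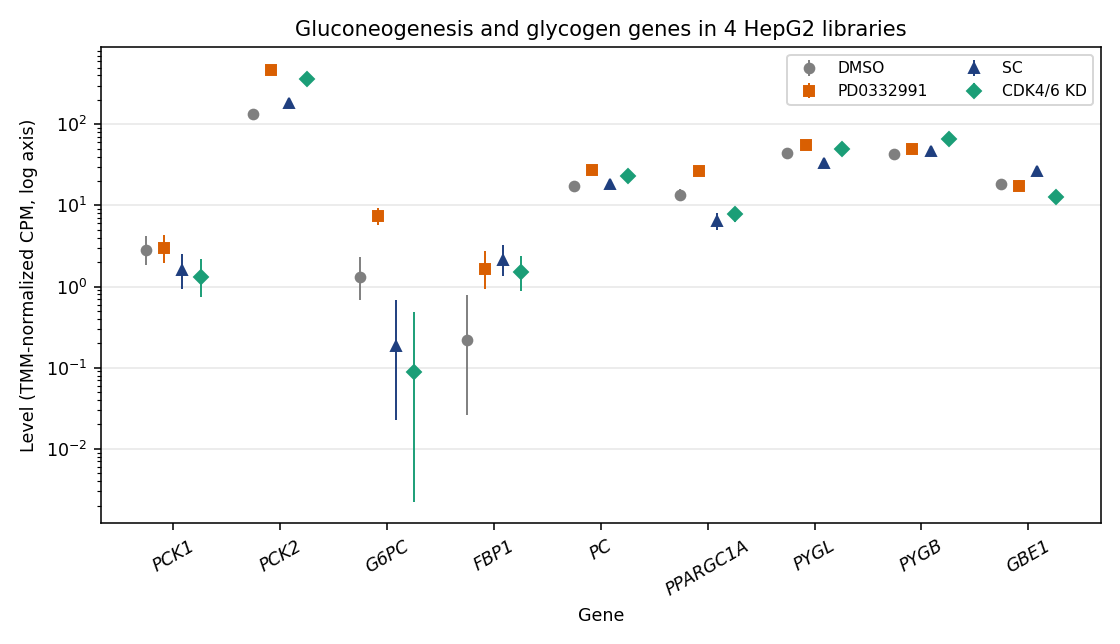
TMM-normalized level in CPM (log axis) of 9 of the 10 genes in the DMSO, PD0332991, SC and CDK4/6 KD libraries, 1 library each, with GYS2 left out because it had 0 reads. Bars are exact Poisson 95% intervals, and PCK2 stood highest in every library, from 134 to 465 CPM.

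PCK2, the mitochondrial PEPCK, was higher in both libraries with CDK4/6 inhibition than in both controls. It had 1224 reads in DMSO, 4234 in PD0332991, 1964 in SC and 4040 in CDK4/6 KD. The levels were 134 CPM in DMSO, 465 in PD0332991, 183.5 in SC and 356.9 in CDK4/6 KD, and no 2 of the 4 counting intervals overlapped. PCK2 was 3.47-fold higher in PD0332991 than in DMSO (95% interval 3.26 to 3.7). It was 1.94-fold higher in CDK4/6 KD than in SC (95% interval 1.84 to 2.05), just under 2-fold, and 2.09-fold with total counts alone or quantile normalization. The control libraries also differed, SC being 1.37-fold above DMSO (95% interval 1.275 to 1.473). GENCODE 29 places PCK2 at chr14:24094053-24110598 of GRCh38, plus strand. The gene NRL on the other strand overlaps its last 500 bases, and whether the counting used the strand is not stated. NRL itself had between 44 and 85 reads per library.

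PCK1, the cytosolic PEPCK, stayed on few reads throughout. It had 26 reads in DMSO, 27 in PD0332991, 17 in SC and 15 in CDK4/6 KD, or 2.85, 2.97, 1.59 and 1.33 CPM. Neighbouring libraries in that order of levels had overlapping counting intervals. The fold change was 1.04 in PD0332991 (95% interval 0.585 to 1.86) and 0.839 in CDK4/6 KD (95% interval 0.388 to 1.78), and a change in either direction was not detectable at this depth. Against DMSO, CDK4/6 KD had a fold change of 0.475 (95% interval 0.229 to 0.913). GENCODE 29 places PCK1 at chr20:57561080-57568112 of GRCh38, plus strand.

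The balance of both PEPCK genes needs no library size correction. PCK1 made up 2.08% of PCK1 and PCK2 reads in DMSO (Clopper-Pearson 95% interval 1.36 to 3.03), 0.634% in PD0332991 (0.418 to 0.921), 0.858% in SC (0.501 to 1.37) and 0.37% in CDK4/6 KD (0.207 to 0.609). PCK2 therefore held nearly all PEPCK reads in every library. The interval of DMSO lay above that of PD0332991, while those of SC and CDK4/6 KD overlapped. The control libraries, SC and DMSO, had intervals that met only at their ends, so that the share in SC was nearer to that of PD0332991 than to that of DMSO.

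**Figure D2:**
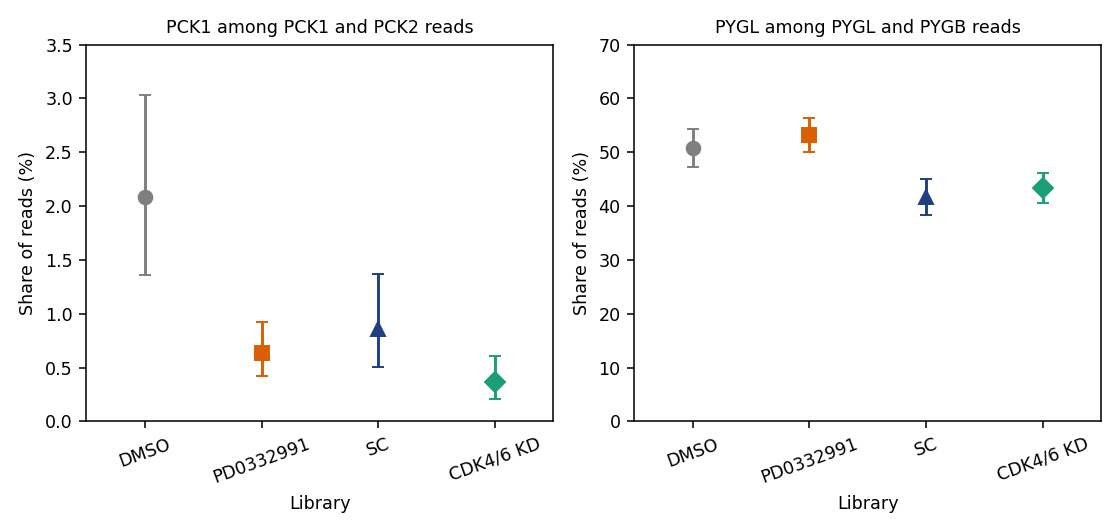
Share of PCK1 among PCK1 and PCK2 reads (left) and of PYGL among PYGL and PYGB reads (right), in percent, for each of the 4 libraries, with exact Clopper-Pearson 95% intervals as bars. The PCK1 share ran from 0.37% in CDK4/6 KD to 2.08% in DMSO, and the PYGL share was 41.7% and 43.3% in the siRNA libraries against 50.8% and 53.2% in DMSO and PD0332991.

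PC was higher in both libraries with CDK4/6 inhibition, by less than 2-fold. It had 157 reads in DMSO, 252 in PD0332991, 197 in SC and 261 in CDK4/6 KD, or 17.2, 27.7, 18.4 and 23.1 CPM. The fold change was 1.61 in PD0332991 (95% interval 1.31 to 1.98) and 1.25 in CDK4/6 KD (95% interval 1.04 to 1.515), while SC and DMSO had an interval that included 1 (fold change: 1.07, 95% interval 0.864 to 1.33). GENCODE 29 places PC at chr11:66848233-66958376 of GRCh38, minus strand. The 250 bases before its outermost RefSeq start are shown because they held 3 copies of TGACG, the core of the cAMP response element through which glucagon signals reach gluconeogenic promoters. The copies, in capitals, began 186, 160 and 111 bases before the start, and 21.2% of 35116 RefSeq promoter windows of that length held at least 1 on either strand. How many windows held 3 was not counted. The windows before the inner starts of PC held no TGACG.
PC, chr11:66958384-66958633, minus strand, GRCh38.p14: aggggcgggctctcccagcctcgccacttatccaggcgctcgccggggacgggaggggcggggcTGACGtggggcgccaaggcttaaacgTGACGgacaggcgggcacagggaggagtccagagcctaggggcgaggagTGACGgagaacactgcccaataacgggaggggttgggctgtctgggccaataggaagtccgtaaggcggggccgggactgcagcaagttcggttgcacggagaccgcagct

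G6PC, which carries out the last step to free glucose, had the widest range of levels among the 9 genes with reads. It had 12 reads in DMSO, 67 in PD0332991, 2 in SC and 1 in CDK4/6 KD, or 1.31, 7.36, 0.187 and 0.0883 CPM. PD0332991 stood above the other 3 libraries, and both siRNA libraries were at or below a floor of 3 reads. G6PC was 5.42-fold higher in PD0332991 than in DMSO (95% interval 3.01 to 11.4). No fold change is given for CDK4/6 KD against SC, since both were under the floor. SC against DMSO had a fold change of 0.174 on 2 and 12 reads (95% interval 0.0155 to 0.639), or 0.38 with 5 reads added, and CDK4/6 KD against DMSO had one of 0.101 on 1 and 12 reads (95% interval 0.00157 to 0.455).

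GENCODE 29 places G6PC at chr17:42900797-42913369 of GRCh38, plus strand. The bases before its start are shown because they held letters of elements known from hormone-regulated liver promoters, given in capitals. They are GTTAAT, an element found in liver promoters, and the reverse complement of TGATGNAA, the core shared by C/EBP and ATF factors. GTTAAT lay 226 to 221 bases before the RefSeq start, and 6.23% of all promoter windows held it on either strand. The C/EBP-ATF core lay 137 to 130 bases before the start, and 3.14% of the windows held it.
G6PC, chr17:42900549-42900796, plus strand, GRCh38.p14: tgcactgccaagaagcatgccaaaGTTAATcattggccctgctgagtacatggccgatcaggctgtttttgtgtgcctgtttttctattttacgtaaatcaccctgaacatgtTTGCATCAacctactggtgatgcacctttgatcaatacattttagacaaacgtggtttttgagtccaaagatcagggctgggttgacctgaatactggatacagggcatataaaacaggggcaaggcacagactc

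RefSeq gave such a window for 8 of the 10 genes, 11 windows in all, and none for PCK1 and GYS2. Each was searched on both strands for the 3 sets of letters above and for the forkhead site TGTTTAC, the TATA box TATAAA, the E-box CACGTG and the E2F site TTTGGCGC. TATAAA, which 10.7% of all windows held, was found before G6PC and GBE1, and CACGTG, which 6.34% held, before PPARGC1A, where it overlapped a TGACG. No window held TGTTTAC or TTTGGCGC, which 2.98% and 0.55% of all windows held. No letters searched for were in the windows of PCK2, FBP1, PYGL and PYGB, nor in the inner windows of PC and PPARGC1A. These matches describe the letters and not binding. The G6PC window also had fewer G and C bases, at 44%, than the median window of the genome, at 58%.

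FBP1 differed mainly in the DMSO library. It had 2 reads there, 15 in PD0332991, 23 in SC and 17 in CDK4/6 KD, or 0.219, 1.65, 2.15 and 1.5 CPM. The fold change of 6.22 in PD0332991 against DMSO rested on 15 and 2 reads, the latter under the floor (95% interval 1.75 to 67.8, or a fold change of 2.86 with 5 reads added), and against SC it was 0.772 (95% interval 0.372 to 1.53). In CDK4/6 KD it was 0.705 against SC (95% interval 0.35 to 1.37). GENCODE 29 places FBP1 at chr9:94603133-94640249 of GRCh38, minus strand. Its last 500 bases overlap PCAT7 on the other strand, which had 6 reads in DMSO and between 13 and 23 in the other libraries. Reads of both genes cannot be told apart if strand was not used.

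PPARGC1A, the coactivator of the fasting response, split the libraries by arm. It had 123 reads in DMSO, 242 in PD0332991, 69 in SC and 89 in CDK4/6 KD, or 13.5, 26.6, 6.45 and 7.86 CPM. Both siRNA libraries were below DMSO and their counting intervals overlapped each other, while DMSO and PD0332991 stood apart from all others. The fold change was 1.97 in PD0332991 (95% interval 1.58 to 2.47), or 2.1 with quantile normalization, and 1.22 in CDK4/6 KD (95% interval 0.88 to 1.695). SC was lower than DMSO (fold change: 0.481, 95% interval 0.351 to 0.648, or 0.52 with quantile normalization). Against DMSO, CDK4/6 KD had a fold change of 0.586 (95% interval 0.44 to 0.7735), so that the direction for CDK4/6 KD depended on the control. GENCODE 29 places PPARGC1A at chr4:23755041-23904089 of GRCh38, minus strand. AC093607.1 overlaps its end on the other strand and is not among the counted symbols, so its reads could not be examined.

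PCK1, G6PC and PPARGC1A were the 3 of 9 genes whose level was lower in both siRNA libraries than in both DMSO and PD0332991, an order that 15.3% of 13961 genes showed. None was higher in both, which 16.2% of the genes were. Transfection, culture time and library cannot be told apart in that split. Fibroblast markers followed it too. Their summed level over 8 markers was 50.1 CPM in DMSO, 81.1 in PD0332991, 8.97 in SC and 23.1 in CDK4/6 KD, with 5, 6, 2 and 2 markers at 10 reads or more. COL1A1 led the list, and DCN was at 0 in DMSO and SC and LUM at 0 in SC and CDK4/6 KD. Their part in these levels was not tested, and in bulk RNA fewer cells of a type and less RNA per cell cannot be told apart.

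PYGL and PYGB, the phosphorylases that release glucose units from glycogen, were both higher in CDK4/6 KD than in SC. PYGL had 404 reads in DMSO, 508 in PD0332991, 360 in SC and 568 in CDK4/6 KD, or 44.2, 55.8, 33.6 and 50.2 CPM. PYGB had 392, 447, 504 and 743 reads in the same order, or 42.9, 49.1, 47.1 and 65.6 CPM. PD0332991 was the highest library for PYGL and CDK4/6 KD for PYGB, and CDK4/6 KD was the only library whose PYGB interval stood apart. In CDK4/6 KD the fold changes were 1.49 for PYGL (95% interval 1.305 to 1.707) and 1.39 for PYGB (95% interval 1.24 to 1.56). In PD0332991 they were 1.26 (95% interval 1.105 to 1.442) and 1.14 (95% interval 0.997 to 1.31).

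PYGL and PYGB had similar shares of the phosphorylase reads in DMSO and PD0332991, and PYGB had the larger share in both siRNA libraries. PYGL was 50.8% of PYGL and PYGB reads in DMSO (95% interval 47.2 to 54.3), 53.2% in PD0332991 (50 to 56.4), 41.7% in SC (38.4 to 45) and 43.3% in CDK4/6 KD (40.6 to 46.1). The intervals of both siRNA libraries lay under those of DMSO and PD0332991, and within each arm the intervals of inhibition and control overlapped. GENCODE 29 places PYGL at chr14:50857891-50944736, minus strand, and PYGB at chr20:25248069-25298014, plus strand. AL358334.1 overlaps the end of PYGL on the other strand and is not among the counted symbols, so its reads could not be examined. ABHD12 overlaps the end of PYGB on the other strand and had 581 reads in DMSO, 490 in PD0332991, 770 in SC and 1063 in CDK4/6 KD. ABHD12 and PYGB were thus both highest in CDK4/6 KD, and without strand their reads cannot be told apart.

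GBE1, the branching enzyme, was lower in CDK4/6 KD than in every other library. It had 168 reads in DMSO, 159 in PD0332991, 281 in SC and 142 in CDK4/6 KD, or 18.4, 17.5, 26.3 and 12.5 CPM. The SC library stood above the other 3 and DMSO and PD0332991 had overlapping intervals. The fold change was 0.479 in CDK4/6 KD (95% interval 0.388 to 0.587), or 0.514 with total counts alone, and 0.683 against DMSO (95% interval 0.542 to 0.858). PD0332991 had a fold change of 0.95 (95% interval 0.76 to 1.19), and SC against DMSO one of 1.43 (95% interval 1.18 to 1.74). GENCODE 29 places GBE1 at chr3:81489699-81762161 of GRCh38, minus strand.

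GYS2, the liver glycogen synthase gene at chr12:21536189-21604847 of GRCh38, minus strand, had 0 reads in all 4 libraries. The floor of 3 reads taken for a count of 0 was worth 0.328 CPM in DMSO, 0.33 in PD0332991, 0.28 in SC and 0.265 in CDK4/6 KD, and the Poisson intervals reached up to 0.404, 0.405, 0.345 and 0.326 CPM. GYS1, the synthase form of muscle and most other cells, had 220 reads in DMSO, 262 in PD0332991, 293 in SC and 246 in CDK4/6 KD. Its fold change was 1.195 in PD0332991 (95% interval 0.995 to 1.44) and 0.794 in CDK4/6 KD (95% interval 0.667 to 0.9435). Whether the authors' counting covered the 3′ end of each gene is not stated, so that 0 reads says only that none were assigned.

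Past a 2-fold threshold, 1 of the 8 genes that had 10 reads or more in at least 1 library of the pair differed in CDK4/6 KD from SC, GBE1 downward, beside 16.8% of 13617 genes. In PD0332991 against DMSO, 3 of 9 did, PCK2, G6PC and FBP1, all upward, beside 14.6% of 13443 genes. Between the control libraries, 3 of 9 did as well, beside 11.9% of 13303 genes. FBP1 was higher in SC, as were 5.3% of all genes, and G6PC and PPARGC1A were lower, as were 6.64%. Counting intervals lay wholly above 1 for 4 genes in CDK4/6 KD (PCK2, PC, PYGL and PYGB) and below 1 for GBE1, beside 30% and 31.9% of all genes. In PD0332991 they lay above 1 for 6 genes (PCK2, G6PC, FBP1, PC, PPARGC1A and PYGL) and below 1 for none, beside 28.1% and 28.6%. In SC against DMSO they lay above 1 for 3 genes (PCK2, FBP1 and GBE1) and below 1 for 3 (G6PC, PPARGC1A and PYGL), beside 28.3% and 28%. The genes of the pathway that were tested had median log2 fold changes of 0.30 for CDK4/6 KD, 0.69 for PD0332991 and 0.10 for SC against DMSO, where all genes had medians of 0.00, 0.02 and 0.01. Of the 9 genes, 4 were above both controls in both libraries with CDK4/6 inhibition (PCK2, PC, PYGL and PYGB), as were 21.3% of all genes. That order is of point values, and 3 of the intervals behind it included 1. They were those of PYGB in PD0332991 against both controls (fold changes: 1.14 to DMSO and 1.04 to SC) and of PYGL in CDK4/6 KD against DMSO (fold change: 1.135, 95% interval 0.997 to 1.293). GBE1 was below both, as were 21%, although with quantile normalization PD0332991 and DMSO changed places.

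**Figure D3:**
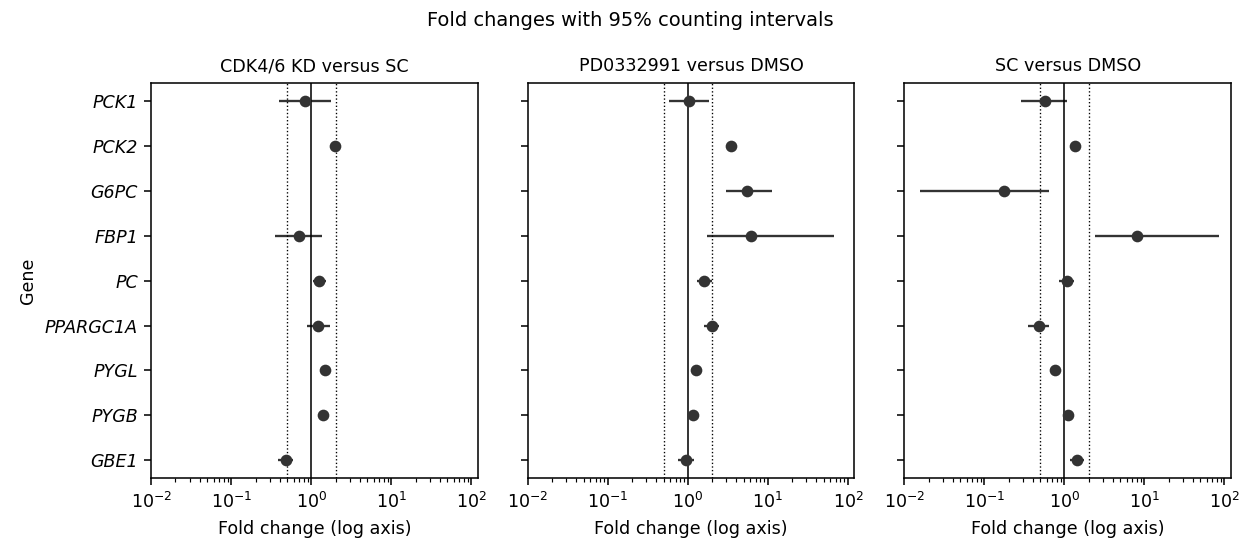
Fold change (log axis) of the 9 genes with reads in CDK4/6 KD versus SC, PD0332991 versus DMSO and SC versus DMSO, 1 library per condition, with 95% counting intervals as bars, a solid line at 1 and dotted lines at 2-fold either way. G6PC has no point in the first comparison, and FBP1 had wide intervals against DMSO, from 1.75 to 67.8 in PD0332991 and from 2.43 to 85.9 in SC.

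Of 14 keratinocyte markers, 6 were like PCK2 higher in both libraries with CDK4/6 inhibition than in both controls (KRT5, KRT14, KRT1, KRT10, KRT17 and COL17A1), SFN was lower in both, and the other 7 overlapped. KRT5 had 2 reads in DMSO, 113 in PD0332991, 13 in SC and 43 in CDK4/6 KD, and KRT14 had 9, 249, 31 and 74. SFN had 1221, 563, 3266 and 1152 reads, and KRT6A, KRT16 and S100A2 had lower levels in CDK4/6 KD than in SC. Among the 14 markers, 4 had at least 10 reads in DMSO, 9 in PD0332991, 8 in SC and 7 in CDK4/6 KD, and their summed levels were 209.5, 230.2, 371.8 and 210.1 CPM, of which SFN made up the most in DMSO, SC and CDK4/6 KD and KRT10 in PD0332991. TP63, a defining factor of these cells, had at most 1 read in any library. COL17A1 was at 0 in DMSO and SC, KRT1 at 0 in DMSO, TP63 at 0 in SC, and DSG3 and DSC3 at 0 in CDK4/6 KD. Their part in the levels of the 10 genes was not tested.

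The genes around this pathway were examined in 4 lists of 83 genes in all. In CDK4/6 KD against SC, 8 of the 70 tested were past 2-fold upward and 5 downward, beside 9.19% and 7.62% of all genes. In PD0332991 against DMSO, 8 of 70 were past it upward and 2 downward, beside 7.49% and 7.06%. Between the controls, 6 of 71 were past it upward and 4 downward, beside 5.3% and 6.64%. Of the flux partners, glycogen partners, hormone and transcription genes and glycolytic genes, 1 of 14, 1 of 22, 5 of 21 and 3 of 14 were past it in either direction, beside 11.9%.

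Among the glycogen synthesis and breakdown partners, 3 of 22 were past 2-fold upward in CDK4/6 KD and none downward, with a median log2 fold change of 0.02. UGP2, which makes the UDP-glucose that feeds glycogen synthesis, had 1087 reads in DMSO, 819 in PD0332991, 826 in SC and 2134 in CDK4/6 KD, standing highest in the last. Its fold change was 2.44 in CDK4/6 KD (95% interval 2.25 to 2.65) and 0.756 in PD0332991 (95% interval 0.69 to 0.829). UGP2, ahead of the synthase, and GBE1, behind it, thus differed in opposite directions in CDK4/6 KD. STBD1, a glycogen-binding protein, and EPM2A, the glycogen phosphatase laforin, were higher in both comparisons on at most 44 reads per library. STBD1 had fold changes of 2.28 in CDK4/6 KD (95% interval 1.31 to 4.25) and 2.48 in PD0332991 (95% interval 1.14 to 6.3). EPM2A had fold changes of 2.1 (95% interval 1.02 to 4.84) and 2.57 (95% interval 1.28 to 5.87). In PD0332991, 4 of 21 partners were higher and none lower, with a median of 0.20. They included PHKG1, a catalytic subunit of phosphorylase kinase, at 2.05-fold (95% interval 1.77 to 2.38), and PPP1R3F, a phosphatase subunit with 3 reads in DMSO and 16 in PD0332991. PHKG1 was also 1.95-fold higher in SC than in DMSO (95% interval 1.69 to 2.26). The muscle phosphorylase PYGM had 0 reads in all libraries.

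Of the gluconeogenic flux partners, which supply or carry substrates, 2 of 14 were past 2-fold upward and 1 downward in CDK4/6 KD, and 1 of 15 was higher in PD0332991. GPD1, which links glycerol to the pathway, had 279 reads in DMSO, 457 in PD0332991, 719 in SC and 371 in CDK4/6 KD. It was lower in CDK4/6 KD than in SC (fold change: 0.488, 95% interval 0.429 to 0.554), while SC was above DMSO (fold change: 2.2, 95% interval 1.91 to 2.54). The aminotransferases GPT and TAT, which feed alanine and tyrosine carbon into the pathway, were 3.07-fold and 2.15-fold higher in CDK4/6 KD on at most 37 reads. LDHB, a lactate dehydrogenase subunit, passed 2-fold in PD0332991 on 11 and 5 reads with an interval that included 1 (95% interval 0.707 to 8.105). G6PC2 and FBP2, the other-tissue forms of G6PC and FBP1, had 0 reads throughout, and G6PC3, the form found in most cells, had between 401 and 832 reads. G6PC3 had fold changes of 1.36 in PD0332991 (95% interval 1.19 to 1.55) and 1.13 in CDK4/6 KD (95% interval 1.02 to 1.25).

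In the list of hormone and transcription control, 3 of 21 genes were past 2-fold upward and 2 downward in CDK4/6 KD, and 1 higher and 2 lower in PD0332991. IGFBP1, an insulin-repressed liver gene that responds to fasting as PCK1 and G6PC do, had 1376 reads in DMSO, 4282 in PD0332991, 4333 in SC and 139 in CDK4/6 KD. It was 3.12-fold higher in PD0332991 (95% interval 2.94 to 3.32) and far lower in CDK4/6 KD (fold change: 0.0304, 95% interval 0.0254 to 0.0359). IGFBP1 and G6PC were both higher in PD0332991 than in DMSO, but in SC IGFBP1 was above DMSO and G6PC below. SIK1, a kinase that restrains the cAMP response, had 113 reads in DMSO, 47 in PD0332991, 49 in SC and 173 in CDK4/6 KD. Its fold changes were 0.42 in PD0332991 (95% interval 0.2905 to 0.5915) and 3.315 in CDK4/6 KD (95% interval 2.42 to 4.68). CRTC2, the cAMP-responsive coactivator that SIK kinases hold in the cytosol, had 37 reads in DMSO, 3 in PD0332991, 5 in SC and 17 in CDK4/6 KD. Against DMSO, CDK4/6 KD had fold changes of 1.235 for SIK1 (95% interval 0.969 to 1.581) and 0.378 for CRTC2 (95% interval 0.196 to 0.675), so that the direction for CRTC2 turned with the control. CEBPB, a factor of the acute and fasting responses, was 2.04-fold higher in CDK4/6 KD (95% interval 1.87 to 2.23). CEBPA, which maintains the hepatocyte programme, was lower in SC than in DMSO (fold change: 0.244, 95% interval 0.218 to 0.272). GCGR, the glucagon receptor, had 0 reads in all libraries, and HNF4A, a driver of hepatic gene expression, had fold changes of 1.36 in PD0332991 (95% interval 1.27 to 1.46) and 1.09 in CDK4/6 KD (95% interval 1.02 to 1.17).

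The medians of the glycolytic enzymes and regulators that oppose the 10 genes turned with the control library. Of 13 tested, none was past 2-fold upward and 2 were downward in CDK4/6 KD, with a median log2 fold change of -0.26, and 2 were higher and none lower in PD0332991, with a median of 0.39. With the other control the medians were 0.25 for CDK4/6 KD against DMSO and -0.24 for PD0332991 against SC, and SC against DMSO had one of 0.56. The 2 lower in CDK4/6 KD were PKM, the pyruvate kinase of most growing cells (fold change: 0.341, 95% interval 0.328 to 0.355), and PFKP, a phosphofructokinase (fold change: 0.34). The 2 higher in PD0332991 were GCKR, a regulatory protein of hepatocyte sugar metabolism (fold change: 3.62, 95% interval 2.8 to 4.77), and PKLR, the liver pyruvate kinase (fold change: 2.16, 95% interval 1.815 to 2.575). GCKR and PKLR were also higher in CDK4/6 KD by less than 2-fold, at 1.54-fold and 1.825-fold. In SC against DMSO, the phosphofructokinase regulator PFKFB4 was 2-fold higher (95% interval 1.39 to 2.96), PFKM passed 2-fold with an interval that included 1 (95% interval 0.857 to 11.7), and HK1 was lower on 2 and 12 reads. NHLRC1, the ubiquitin ligase malin of the glycogen list, had 11 reads in SC and none in DMSO.

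**Figure D4:**
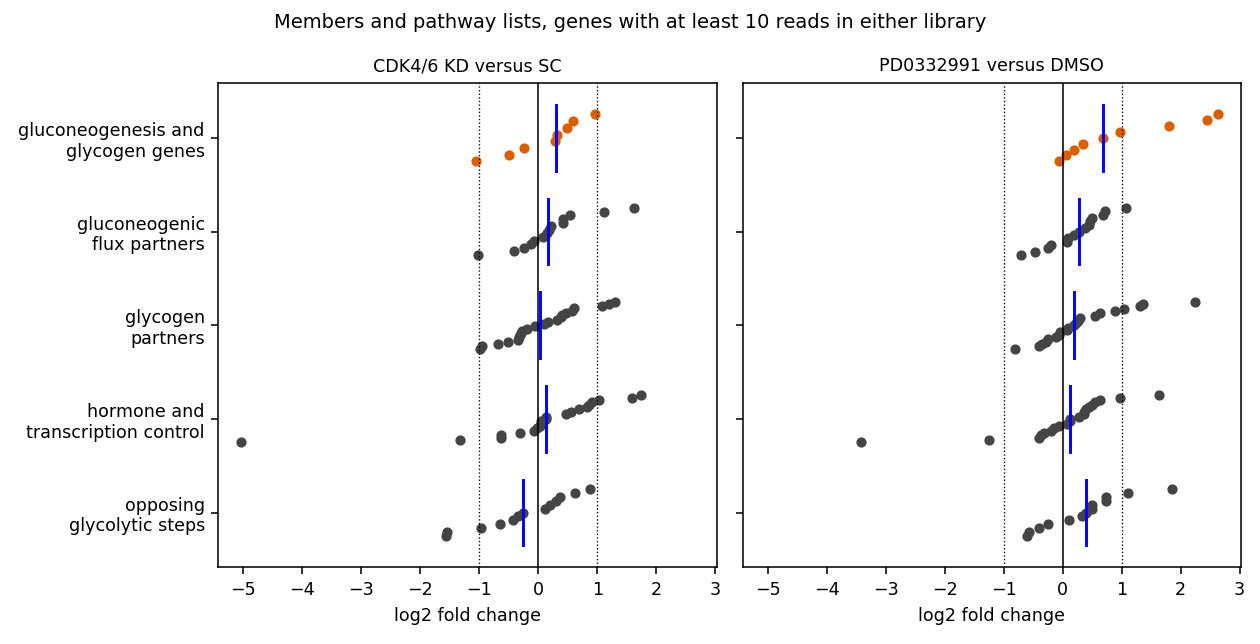
log2 fold change of each gene that passed the filter of 10 reads, for the gluconeogenesis and glycogen genes and 4 lists of pathway genes, in CDK4/6 KD versus SC (left) and PD0332991 versus DMSO (right), with blue bars at list medians and dotted lines at 2-fold. The medians of the 10-gene group, over 8 and 9 genes tested, were 0.30 and 0.69, and those of the opposing glycolytic steps -0.26 and 0.39, which turned to 0.25 and -0.24 with the control of the other arm.

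The level patterns of the 2 most varied genes with at least 100 reads were compared with those of 11820 other genes over the 4 libraries, by the distance between mean-centred log2 CPM. Nearest to PPARGC1A were SORL1, a sorting receptor, at a distance of 0.0467, LOC728392 at 0.24 and TMEM158 at 0.281. SORL1 had 757 reads in DMSO, 1474 in PD0332991, 438 in SC and 541 in CDK4/6 KD. Nearest to PCK2 were ITPR1-AS1 at 0.198, TMEM44-AS1 at 0.206 and CYP4F12 at 0.22. CYP4F12, a cytochrome P450, had 141 reads in DMSO, 413 in PD0332991, 234 in SC and 446 in CDK4/6 KD. With 4 libraries and many genes, close patterns are a description only.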

How the data were processed

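Total RNA of HepG2 cells had been turned into QuantSeq 3′ mRNA libraries, 1 per condition, and conditions were read from the sample titles. The deposited values are the authors' raw read counts by gene symbol, not normalized. The submitters' processing notes name Bowtie2, edgeR and the build hg19, without versions. The counter, annotation and strand setting are not given in the sources used here. Gene positions come from GENCODE 29 on GRCh38 and promoter windows from RefSeq on GRCh38.p14, so they are not the coordinates used for counting.

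Repeated symbols (286 among 25737 entries) were added up, giving 24462 genes. TMM factors over all 4 libraries were computed with edgeR 4.0.16 in R 4.3.3 and lay between 0.957 and 1.03. To each count 0.5 reads, in proportion to library size, were added before taking fold changes, and a gene was tested if either library had 10 reads or more. The floor was 3 reads. Intervals at the 95% level are exact (scipy 1.17.1), and they cover counting error and not PCR copies. No quasi-likelihood test of edgeR was possible without replicates. On data simulated for CDK4/6 KD versus SC with Poisson counting error alone, intervals held the true fold for 95.6% of 13311 genes. That is the error the intervals assume, so the simulation checked the computation and not how they hold with other spread. Results were recomputed with DESeq2 1.42.0 size factors, with total counts alone, after quantile normalization (limma 3.58.1), after adding 5 reads, against the other arm's control, without the filter or at 50 reads, at 1.5-fold, for intervals wholly past 2-fold, and from only the largest entry of each repeated symbol.

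Besides the 10 genes, CDK4 and CDK6, the genes named were up to 4 per pathway list and comparison past 2-fold, ranked by the interval end nearest to 1, and the 3 nearest patterns of the 2 most varied genes. GYS1, G6PC3, GPT2, HNF4A, GCGR, PYGM, G6PC2 and FBP2, marker genes and genes overlapping a 3′ end were named after their values were seen. The members and lists were chosen with earlier results of these data known.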

Additional observations from a re-analysis of the deposited data

Results flagged for a closer look

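No result on the 10 gluconeogenesis and glycogen genes was past 2-fold in opposite directions in the CDK4/6 KD and PD0332991 comparisons. Among the 83 pathway genes, 3 were, with both intervals leaving out 1. The share of all genes that did so was not counted, so whether 3 is many cannot be said. IGFBP1 had fold changes of 0.0304 in CDK4/6 KD and 3.12 in PD0332991. SIK1 had fold changes of 3.315 and 0.42. CRTC2 had fold changes of 3.02 (95% interval 1.14 to 11.1) and 0.0936 (95% interval 0.0161 to 0.257), on at most 37 reads per library. Each rests on 1 library per condition, and the difference between the comparisons was not tested. The control libraries also differed in these genes, by fold changes of SC to DMSO of 2.69 for IGFBP1, 0.373 for SIK1 and 0.126 for CRTC2. With DMSO as the control of CDK4/6 KD, CRTC2 was lower there too (fold change: 0.378, 95% interval 0.196 to 0.675), SIK1 had an interval that included 1 (fold change: 1.235, 95% interval 0.969 to 1.581), and IGFBP1 remained lower (fold change: 0.0818). With SC as the control of PD0332991, IGFBP1 and SIK1 had fold changes of 1.16 and 1.13, and CRTC2 was under 10 reads in both libraries.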

How the results depend on the processing

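Of 121 alternative fold changes of the 10 genes, 108 lay within the counting interval of the reported value. With another scaling or pseudocount, 2 of 104 left it, both of PCK2 in CDK4/6 KD. Adding 5 reads in place of 0.5 moved FBP1 from 6.22 to 2.86 in PD0332991 and from 8.17 to 3.67 in SC against DMSO, and G6PC from 0.174 to 0.38 in the latter, within their intervals. With the control of the other arm, 11 of 17 did, and FBP1 in PD0332991 turned to 0.772. The count of the 10 genes past 2-fold, 1 in CDK4/6 KD, was 2 with quantile normalization, 4 against DMSO, 2 at 1.5-fold and 0 with the whole interval past 2-fold. In PD0332991 it was 3, and 4 with quantile normalization, 5 at 1.5-fold and 2 with a filter of 50 reads or the whole interval past 2-fold. Between the controls it was 3, and 2 with quantile normalization, 4 at 1.5-fold and 1 with a filter of 50 reads or the whole interval past 2-fold. For the 4 pathway lists, 13 genes past 2-fold in CDK4/6 KD became 7 with a filter of 50 reads, 27 at 1.5-fold and 5 with the whole interval past 2-fold. In PD0332991, 10 became 5, 21 and 3, and between the controls 10 became 6, 26 and 4. The other settings gave 10 to 15 genes in CDK4/6 KD, 9 to 12 in PD0332991 and 8 to 13 between the controls. The 5 genes above or below both controls became 4 with quantile normalization, without GBE1. The shares of PCK1 and PYGL were the same with only the largest entry of each repeated symbol. Of the count of 1 in CDK4/6 KD, total counts alone put PCK2 (2.09) past 2-fold in place of GBE1 (0.514). Total counts moved the median log2 fold change of all genes in CDK4/6 KD by 0.10. No paired analysis was possible because each condition has 1 library. The low counts of PCK1, FBP1 and, outside PD0332991, G6PC limit what could be seen in those genes.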
